A study of Mus musculus with 16 samples.

Results

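The SOCS family is the set of 8 genes Cish and Socs1 to Socs7, found by their symbols among the 22287 genes of the count table, and all 8 were among the 12514 genes with enough counts to be tested. Their mRNA was measured by RNA-seq in bone marrow-derived macrophages (BMDMs), which are cells grown from mouse marrow in the presence of a colony stimulating factor. All cells came from C57BL/6J mice of 8 weeks and matured for 7 days with GM-CSF (GM, at 20 ng/ml) or with M-CSF (M, at 50 ng/ml) on plastic with tissue culture treatment (TC) or on untreated polystyrene (noTC). Each culture was then given vehicle (steady state) or 100 ng/ml of the bacterial endotoxin LPS for 3 h, so that a group such as GM-TC or M-noTC is named by growth factor and dish, and its LPS counterpart GM-TC-LPS or M-noTC-LPS. There were 2 libraries in each of the 8 groups. The study calls the 2 libraries of a group biological replicates without saying whether they came from different mice, and the p-values measure the spread between these libraries. BMDMs are a bulk culture matured outside the animal, and in bulk RNA fewer expressing cells and less RNA per cell cannot be told apart.

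Suppressor of cytokine signaling (SOCS) proteins are intracellular inhibitors of cytokine receptors. Each carries an SH2 domain, which binds phosphorylated tyrosines on receptors or JAK kinases, and a SOCS box, which recruits elongins and a cullin so that the bound protein is ubiquitinated. Several SOCS genes are themselves targets of STAT factors, so that a cytokine induces its own inhibitor: SOCS1 is known for limiting interferon signals, SOCS3 for limiting receptors that use gp130 and the G-CSF receptor, and CIS (gene Cish) and SOCS2 for limiting receptors that act through STAT5, such as those for GM-CSF and growth hormone. SOCS4 to SOCS7 are less studied and have been linked to EGF receptor, KIT and insulin signaling.

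The promoters of 3 members are shown because they hold copies of the elements through which STAT and IRF factors act on DNA, and because Socs1, Socs3 and Cish were the members with the largest LPS responses in M cells. Sequences are from RefSeq on GRCm38.p6, which listed 300-base windows around the start for 4 members, Socs1, Socs3, Socs4 and Cish. The GAS element to which STAT dimers bind was searched as TTCNNNGAA, and the IRF element as GAAA and GAAA with any 2 bases between them, on both strands, together with an NF-kB site. Capitals mark these matches, and positions are counted from the transcription start. The Socs1 window below covers the 250 bases before the start (chr16:10785537-10785786, minus strand) and holds a pair of overlapping IRF elements at -83 to -74 and -77 to -68. The Socs3 window covers the 250 bases before its start (chr11:117969367-117969616, minus strand) and holds 1 GAS element at -154 to -146. For Cish, a stretch of 30 bases across the start (chr9:107296654-107296683, plus strand) holds 2 GAS elements at 1 to 9 and 12 to 20.
Socs1: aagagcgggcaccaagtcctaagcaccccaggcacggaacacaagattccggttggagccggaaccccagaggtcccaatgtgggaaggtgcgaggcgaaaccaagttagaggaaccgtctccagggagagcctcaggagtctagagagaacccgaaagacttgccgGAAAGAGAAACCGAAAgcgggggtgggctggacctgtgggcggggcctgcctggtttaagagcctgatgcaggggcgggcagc
Socs3: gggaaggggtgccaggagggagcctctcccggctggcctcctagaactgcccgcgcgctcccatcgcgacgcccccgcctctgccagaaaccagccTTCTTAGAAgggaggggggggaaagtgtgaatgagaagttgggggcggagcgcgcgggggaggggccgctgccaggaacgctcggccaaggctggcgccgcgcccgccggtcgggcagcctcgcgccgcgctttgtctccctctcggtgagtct
Cish: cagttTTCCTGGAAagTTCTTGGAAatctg
No match to any of the 3 motifs was found in the Socs4 window, and no window was listed for Socs2, Socs5, Socs6 or Socs7. Of 32851 promoter windows of the same length, 8.30% held a GAS element, 3.44% an IRF element and 8.46% an NF-kB site. Windows with 2 or more GAS elements, as in Cish, made up 0.457%, and those with 2 or more IRF elements, as in Socs1, 0.225%. These matches describe the letters of the windows, and binding was not measured here.

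Levels are CPM, the counts of a gene relative to the size of its library, scaled by TMM, a factor that edgeR computes from the bulk of the genes. Sums of markers, here and below, and the share of other libraries use library size only, without TMM. Total counts per library lay between 17527802 and 31458363, at which 3 counts, the floor used here for a gene, correspond to between 0.0697 and 0.174 CPM, for counting error only. The macrophage marker list (Adgre1, Cd68, Csf1r and 5 others) summed to between 19543 and 45589 CPM in every library with no marker at 0. Markers of dendritic cells (Flt3, Zbtb46, Itgax, Ccr7 and Cd209a) were also high in GM cultures, at 784 to 1086 CPM, against 17.6 to 65.9 CPM in M cultures, and no marker was at 0 in every library. Lymphocyte markers summed to at most 0.915 CPM, with Cd3e at 0, and red cell markers to at most 0.970 CPM, with Alas2 at 0. Granulocyte markers summed to at most 21.9 CPM, mast cell and basophil markers to at most 37.1 CPM, with Mcpt4 at 0, and fibroblast markers to at most 12.0 CPM. The 4 TC libraries at steady state stood apart by heart muscle transcripts (Myh6, Actc1, Myl2, Mybpc3 and Mb), which summed to between 19.6 and 72.2 CPM there and to at most 1.13 CPM in the other 12. The noTC libraries at steady state stood apart in another way. Genes near absent from TC libraries at steady state and abundant elsewhere were present in them at a median of 0.675% (GM) and 0.573% (M) of their mean in the 10 libraries outside their own group and the TC groups at steady state. Il6 had this pattern, with group means of 0.0199 CPM in M-TC, 5.69 CPM in M-noTC and 1493 CPM in M-TC-LPS. In GM-TC and GM-noTC its means were 0.252 and 6.77 CPM. The study reports proinflammatory genes, Il6 among them, as higher on noTC dishes at steady state. Whether the share came from other libraries or from the noTC cells themselves was not tested. For members at low levels in M-noTC (Cish, Socs1, Socs2 and Socs3) results are also given after subtracting that share, as an alternative and not as a correction.

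The members differed widely in how far they moved among the 8 groups. From the lowest to the highest group mean, Cish ranged from 0.312 to 207 CPM, Socs3 from 2.82 to 1026 CPM, Socs1 from 1.01 to 137 CPM and Socs2 from 0.523 to 70.8 CPM. Socs7 ranged from 20.7 to 161 CPM and Socs6 from 33.5 to 130 CPM. Socs4 (39.9 to 65.5 CPM) and Socs5 (26.5 to 40.2 CPM) stayed within the narrowest ranges.

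**Figure D1:**
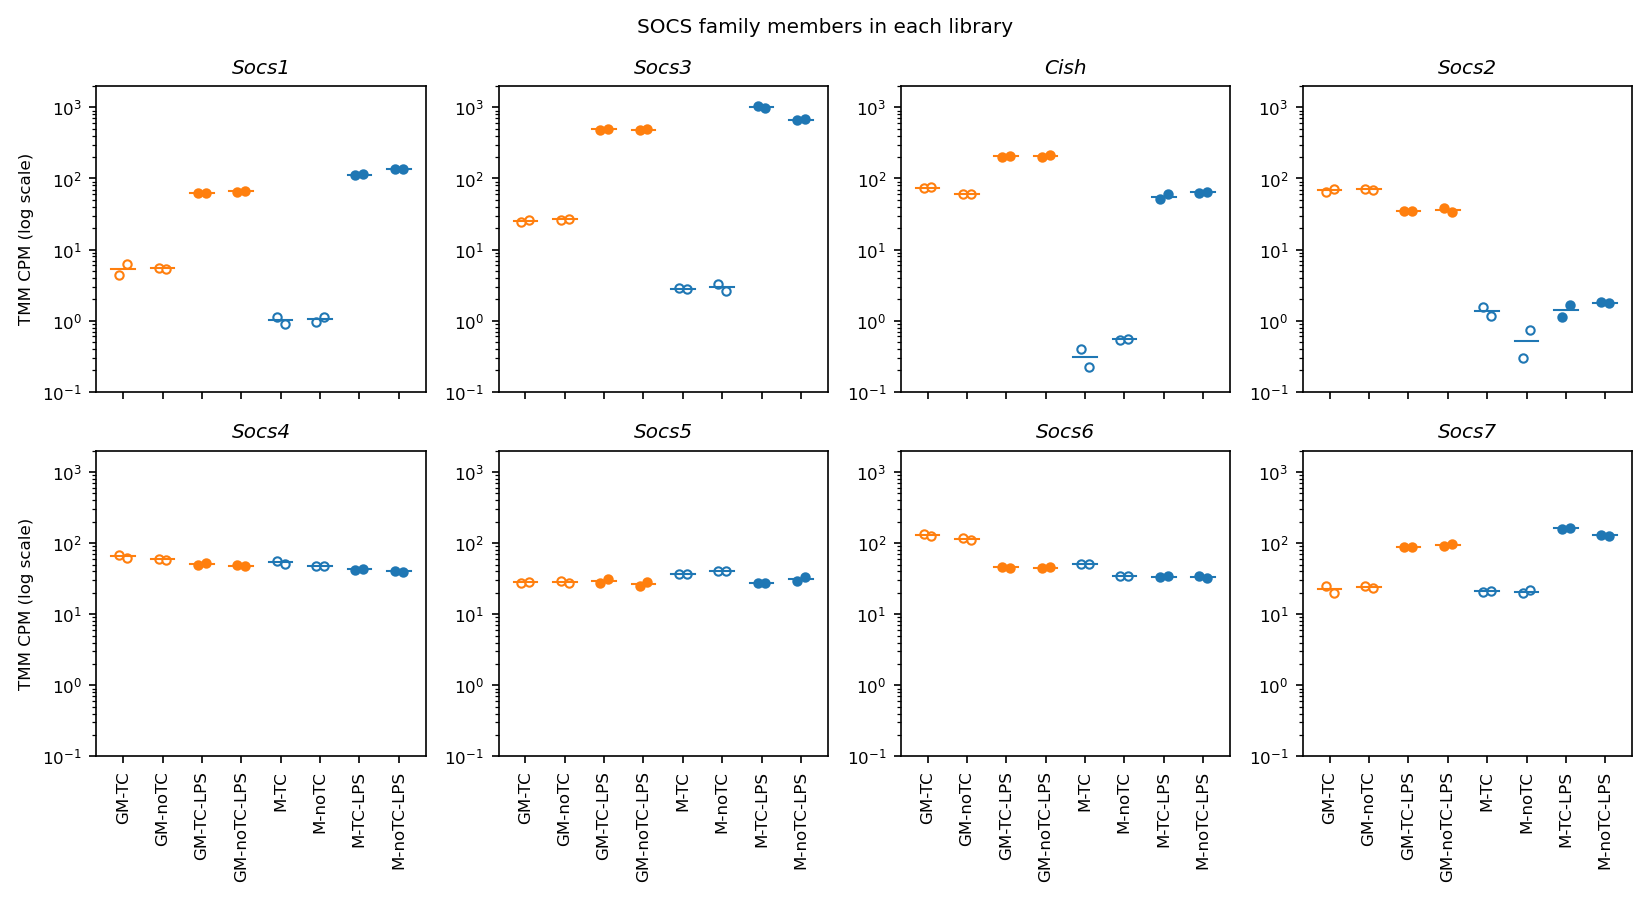
Level of each SOCS family member (TMM CPM, log axis) in the 16 libraries, with GM cultures in orange, M cultures in blue, steady state as open points, LPS as filled points and short lines at the group means. Cish and Socs2 stand high in GM cultures and low in M cultures at steady state, and Socs1, Socs3 and Socs7 stand high in all LPS libraries.

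Compared per length of the principal transcript, the leading members differed between GM and M cells at steady state and changed with LPS. At steady state the first 3 members were the same on both dishes. At steady state the 3 most abundant members in GM-TC cells were Socs2 with 28.4%, Cish with 23.9% and Socs6 with 19.7% of the summed CPM per kb. GM-noTC cells had the same order, with 31.1%, 20.7% and 18.4%. In M-TC cells the first 3 were Socs6 with 28.7%, Socs5 with 27.2% and Socs4 with 26.6%, of which Socs5 and Socs4 overlapped between libraries, and Cish and Socs2 contributed 0.373% and 2.09%. In M-noTC cells Socs5 led with 33.0%, followed by Socs4 with 26.4% and Socs6 with 22.0%. Upon LPS, Socs3 came first in every culture, with 57.3% in GM-TC-LPS, 56.8% in GM-noTC-LPS, 80.1% in M-TC-LPS and 71.2% in M-noTC-LPS. Second was Cish in the GM cultures (21.5% and 21.6%) and Socs1 in the M cultures (7.76% and 12.8%). The summed level of the family was 109 (TC) and 102 (noTC) CPM per kb in GM cells and 29.3 (TC) and 26.3 (noTC) in M cells. It was 336 CPM per kb in both GM-TC-LPS and GM-noTC-LPS, 502 in M-TC-LPS and 370.2 in M-noTC-LPS. These orders, shares and sums depend on the length used, while counts are per gene. The principal transcript of Socs2 has 2222 bases and all its exons together 9531, and that of Socs6 has 6036 against 11349. For Socs4 both lengths are 6877 bases. Shares by exon length were not computed, so the order of members at steady state is uncertain.

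**Figure D2:**
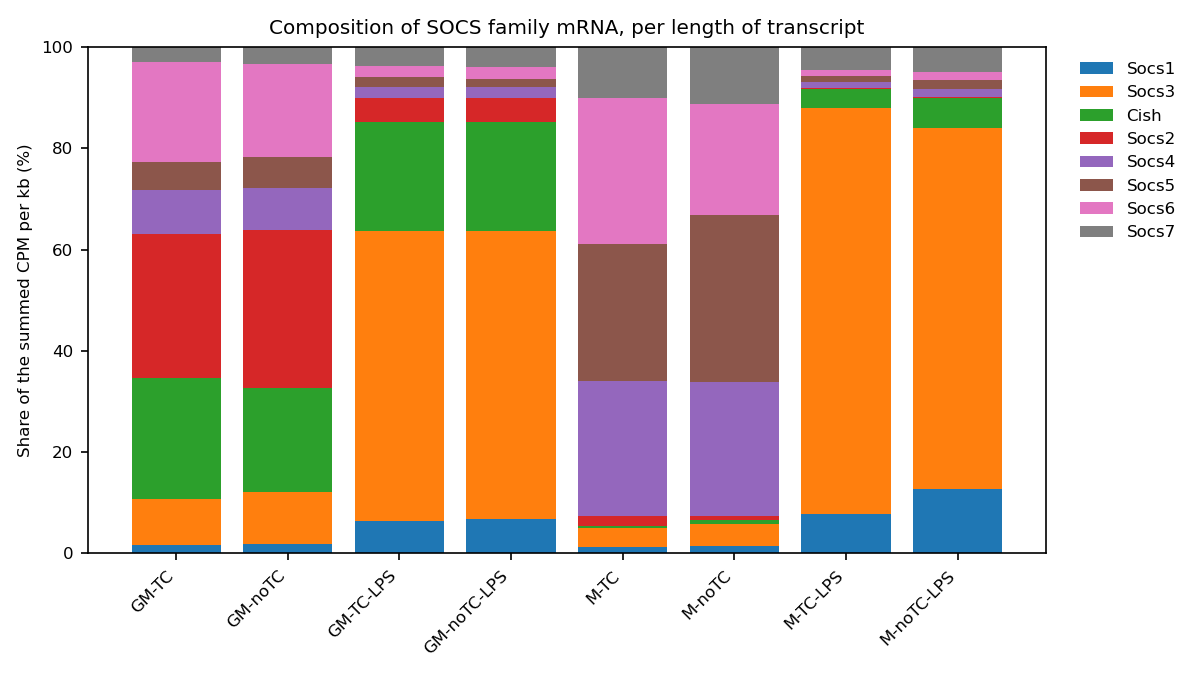
Share of each member in the summed CPM per kb of principal transcript (bars to 100%, group means of 2 libraries) in the 8 groups. Socs2, Cish and Socs6 fill most of the GM bars at steady state, Socs4, Socs5 and Socs6 most of the M bars, and Socs3 takes between 56.8% and 80.1% upon LPS. The shares depend on the transcript length chosen.

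The comparison of GM-CSF with M-CSF asks which SOCS genes follow the growth factor. On TC dishes at steady state 6 of 8 members were higher in GM cells and 1 was lower, while 32.6% of all tested genes were higher and 28.9% lower. On noTC dishes 7 were higher and 1 lower, against 31.4% and 30.7% of all tested genes. The dendritic cell markers moved with these differences, at 1006 to 1086 CPM in GM and 21.5 to 65.9 CPM in M cells at steady state. So did the markers of granulocytes (8.61 to 15.5 against 0.416 to 0.514 CPM) and of mast cells and basophils (20.8 to 37.1 against 7.53 to 11.4 CPM), and their part in the results was not tested.

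Cish, the STAT5 target that encodes CIS, differed most on TC dishes. It was at 72.4 and 76.3 CPM in the GM-TC libraries and at 0.399 and 0.225 CPM in the M-TC libraries. Both GM-TC libraries stood far above both M-TC libraries, and the fold was 237 (95% interval 192 to 292, adjusted p = 1.86e-21 by edgeR's quasi-likelihood test with Benjamini-Hochberg adjustment). The M-TC values rest on 10 and 6 counts. On noTC dishes Cish was at 59.8 and 60.7 CPM in GM and 0.539 and 0.557 CPM in M cells, a 109-fold difference (90.7 to 130, adjusted p = 1.87e-21). Subtracting the share of other libraries removed 74.8% of the Cish level in M-noTC cells and raised the log2 fold change from 6.76 to 8.71. Whether the subtracted reads came from other libraries or from the M-noTC cells was not tested. The exons of Cish overlap 2 antisense genes, Gm17041 and Gm17040, at 7.46% and 4.07% of their bases, and with this library kit reads of the overlap cannot be told apart by strand.

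Socs2, the other member known to act on STAT5 receptors, was at 65.3 and 72.1 CPM in GM-TC and 1.56 and 1.16 CPM in M-TC libraries. On noTC dishes it was at 71.6 and 69.9 CPM in GM and at 0.303 and 0.743 CPM in M cells. The libraries of the 2 growth factors did not overlap, and the folds were 50.7 on TC (41.4 to 62.0, adjusted p = 2.58e-19) and 125 on noTC (101 to 155, adjusted p = 2.3e-20), where the subtraction moved the log2 fold change from 6.96 to 7.28. Upon LPS Socs2 was at 34.0 to 37.9 CPM in the GM libraries and at 1.13 to 1.85 CPM in the M libraries.

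Socs3 and Socs1, the inhibitors of gp130 and interferon receptors, were also higher in GM cells at steady state, at lower levels. Socs3 was at 24.2 and 26.4 CPM in GM-TC and 2.87 and 2.77 CPM in M-TC, an 8.98-fold difference (7.72 to 10.4, adjusted p = 4.24e-17). Socs1 was at 4.44 and 6.24 CPM in GM-TC and 1.12 and 0.898 CPM in M-TC, a 5.38-fold difference (4.10 to 7.05, adjusted p = 1.76e-10). On noTC dishes the log2 fold changes were 3.19 ± 0.09 (SE) for Socs3 and 2.36 ± 0.17 for Socs1, and 4.45 and 2.67 after the subtraction.

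Of the less studied members, Socs6, linked to KIT signaling, was at 134 and 125 CPM in GM-TC and 50.4 and 51.0 CPM in M-TC, 2.55-fold higher in GM (2.35 to 2.77, adjusted p = 4.5e-15), and 3.26-fold higher on noTC dishes. Socs5 was the one member lower in GM cells, at 27.8 and 28.3 CPM against 37.3 and 36.8 CPM on TC dishes, with a log2 fold change of -0.40 ± 0.08 (adjusted p = 0.000136), and -0.50 ± 0.08 on noTC (adjusted p = 5.24e-06). For Socs4 the log2 difference was 0.29 ± 0.06 on TC and 0.32 ± 0.06 on noTC under TMM, but -0.0215 and 0.0254, and no longer called, when only library size was used, a scaling that moved the median of all genes to -0.29 in both comparisons. Socs7 was within replicate spread on TC (log2 fold change 0.10, interval -0.09 to 0.29, adjusted p = 0.368) and slightly higher on noTC (0.22 ± 0.09, adjusted p = 0.0306), where its sign turned with library size only (-0.0682) and its call was lost without GM-noTC replicate 1 (adjusted p = 0.24) or M-noTC replicate 1 (adjusted p = 0.229).

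**Figure D3:**
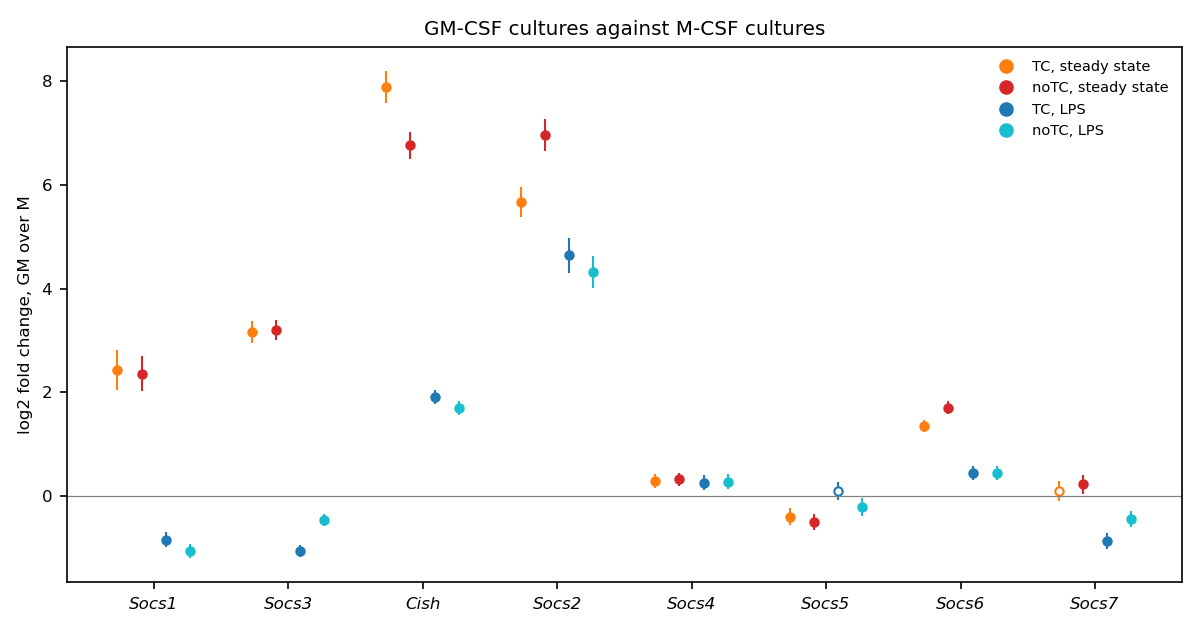
Log2 fold change of GM over M cultures for each member with 95% intervals, on TC and noTC dishes at steady state and upon LPS; filled points passed an adjusted p of 0.05. Cish and Socs2 are far above 0 in all 4 conditions, while Socs1 and Socs3 are above 0 at steady state and below 0 upon LPS.

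Upon LPS the growth factor comparison changed direction for some members. On TC dishes 4 were higher in GM-TC-LPS (Cish, Socs2, Socs6 and Socs4) and 3 lower (Socs3, Socs7 and Socs1), against 33.9% and 32.9% of all tested genes. On noTC dishes the same 4 were higher and Socs1, Socs3, Socs5 and Socs7 were lower, against 33.5% and 32.6%. The Socs5 difference there was -0.22 (adjusted p = 0.0222), and its call was lost without GM-noTC-LPS replicate 1 (adjusted p = 0.233) or M-noTC-LPS replicate 2 (adjusted p = 0.273) and when DESeq2 was run on the 4 compared libraries alone (adjusted p = 0.137). Socs3 reached 479 and 505 CPM in GM-TC-LPS and 1057 and 994 CPM in M-TC-LPS, which differ by -1.06 ± 0.05 on the log2 scale (adjusted p = 1.36e-13). The libraries did not overlap, and on noTC dishes the difference was smaller, -0.46 ± 0.05. Socs1 was at 62.9 and 62.8 CPM in GM-TC-LPS and 110.4 and 116 CPM in M-TC-LPS (-0.85 ± 0.07, adjusted p = 2.98e-10), and its difference on noTC dishes was -1.06 ± 0.07. Socs2 was still 24.9-fold higher in GM-TC-LPS than in M-TC-LPS (19.7 to 31.5), with 34.7 and 34.6 CPM against 1.13 and 1.69 CPM. Cish was 3.75-fold higher (3.40 to 4.13), with 203 and 210.1 CPM against 50.8 and 59.7 CPM.

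The LPS comparison asks which members the endotoxin induced or lowered in each culture. Socs1, Socs3, Socs7 and Cish rose in all 4 cultures. In GM-TC cells 4 members rose and 3 fell, against 32.8% and 34.2% of all tested genes, and in GM-noTC cells also 4 rose and 3 fell, against 33.6% and 34.0%. In M-TC cells 4 rose and 3 fell, against 37.6% and 36.4%, and in M-noTC cells 5 rose and 2 fell, against 36.4% and 35.9%. Under TMM the tested genes had a median log2 change between -0.05 and -0.01 in these comparisons, and with library size only between -0.83 and -0.53.

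Socs3 had the largest response in every culture. In M-TC cells it went from 2.87 and 2.77 CPM to 1057 and 994 CPM, a 363-fold rise (320 to 413, adjusted p = 5.89e-26). In M-noTC cells it went from 3.30 and 2.62 CPM to 665 and 680 CPM, a 231-fold rise (204 to 260, adjusted p = 1.12e-25). In GM-TC cells, which began at 24.2 and 26.4 CPM, it reached 479 and 505 CPM, a 19.4-fold rise (17.6 to 21.4, adjusted p = 4.21e-23), and in GM-noTC cells the rise was 18.3-fold (16.6 to 20.1). The starting level was thus higher and the final level lower in GM than in M cells, with no overlap between libraries.

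Socs1 went from 1.12 and 0.898 CPM to 110.4 and 116 CPM in M-TC cells, a 112-fold rise (94.5 to 133, adjusted p = 2.1e-22). The rise was 129-fold in M-noTC (110 to 151), where LPS libraries were at 138 and 137 CPM, and its log2 fold change moved from 7.02 to 7.42 with the subtraction. In GM-TC cells Socs1 rose 11.6-fold (10.1 to 13.3, adjusted p = 7.92e-19) from 4.44 and 6.24 CPM to 62.9 and 62.8 CPM, and in GM-noTC cells 12.1-fold (10.6 to 13.8).

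Cish went from near the floor to 50.8 and 59.7 CPM in M-TC cells, a 176-fold rise (141 to 219, adjusted p = 3.24e-21), and to 63.1 and 64.2 CPM in M-noTC cells, a 115-fold rise (95.7 to 138). After the subtraction the log2 fold change of Cish in M-noTC cells was 8.80 in place of 6.84, and that of Socs3 9.24 in place of 7.85. In GM-TC cells Cish was already at 72.4 and 76.3 CPM and rose 2.78-fold (2.53 to 3.05, adjusted p = 5.03e-15), and in GM-noTC cells 3.43-fold (3.12 to 3.76) to 202 and 211 CPM. The LPS level of M cells thus lay close to the steady state level of GM cells, with M-noTC-LPS libraries above those of GM-noTC and M-TC-LPS libraries below those of GM-TC.

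Socs7 rose from 25.3 and 19.7 CPM to 88.5 CPM in each GM-TC-LPS library, a log2 rise of 1.98 ± 0.08 (adjusted p = 2.28e-15), and by 1.96 ± 0.08 in GM-noTC. In M-TC cells it rose from 20.5 and 21.3 CPM to 158 and 165 CPM, by 2.95 ± 0.08 (adjusted p = 6.78e-19), and in M-noTC cells by 2.63 ± 0.08. Its response was the fourth largest of the family in M cells.

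Socs2 and Socs6 fell with LPS in GM cells. Socs2 went from 65.3 and 72.1 CPM to 34.7 and 34.6 CPM in GM-TC, with a log2 change of -0.99 ± 0.09 (adjusted p = 1.64e-09), and by -0.98 ± 0.09 in GM-noTC. In M-TC cells Socs2 stayed at 1.13 and 1.69 CPM (0.04, interval -0.57 to 0.65, adjusted p = 0.92, and -0.79, called lower, with library size only), and in M-noTC cells it rose from 0.303 and 0.743 CPM to 1.85 and 1.75 CPM (1.67 ± 0.30, adjusted p = 4.4e-05, and 1.98 after the subtraction). Socs6 went from 134 and 125 CPM to 46.8 and 45.1 CPM in GM-TC (-1.49 ± 0.06, adjusted p = 7.4e-16), and fell by 1.33 on the log2 scale in GM-noTC. In M-TC cells it went from 50.4 and 51.0 CPM to 33.3 and 34.3 CPM (-0.59 ± 0.06, adjusted p = 2.7e-08), whereas in M-noTC cells the log2 fold change was -0.06 (interval -0.19 to 0.07, adjusted p = 0.389, and -0.79, called lower, with library size only).

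Socs4 fell a little in every culture, by log2 fold changes of -0.37 ± 0.06 and -0.29 ± 0.06 in GM cells on TC and noTC and -0.33 ± 0.07 and -0.25 ± 0.07 in M cells, with adjusted p between 3.68e-05 and 0.00165. Socs5 fell in the M cultures, by log2 fold changes of -0.42 ± 0.08 in M-TC and -0.38 ± 0.08 in M-noTC. In GM cultures its log2 fold changes were 0.08 (interval -0.09 to 0.25) and -0.10 (-0.27 to 0.07), and with library size only they were -0.40 and -0.61 and called lower.

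**Figure D4:**
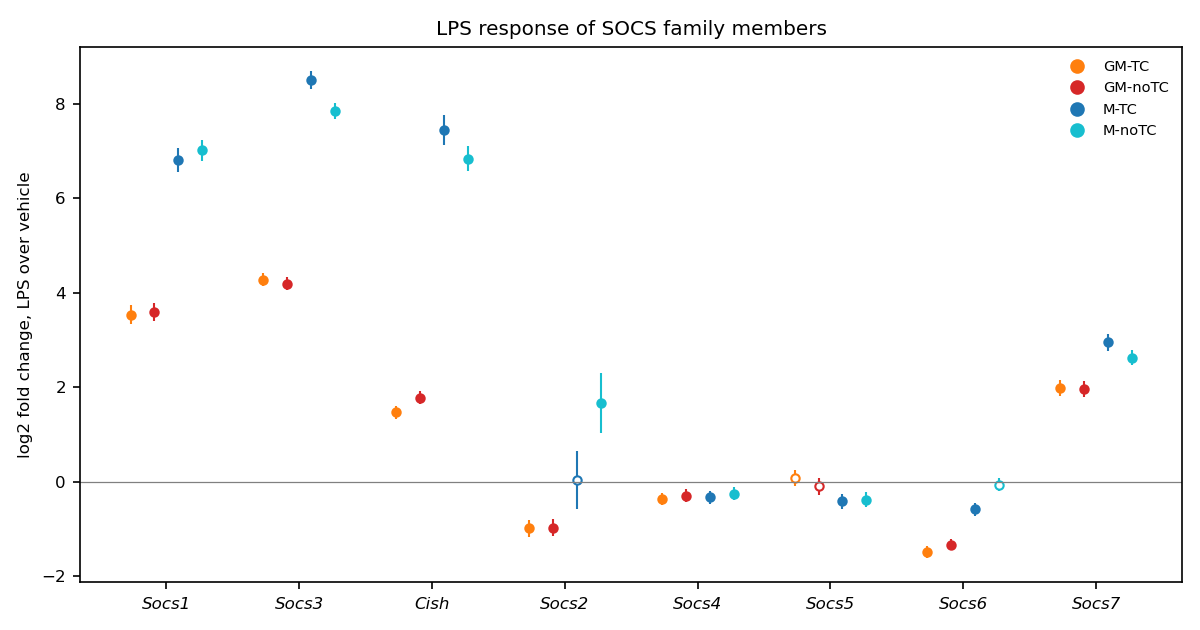
Log2 fold change of LPS over vehicle for each member with 95% intervals, in the 4 combinations of growth factor and dish; filled points passed an adjusted p of 0.05. Socs1, Socs3 and Cish rise by 6.81 to 8.50 in M cells and by 1.47 to 4.28 in GM cells, and Socs2 and Socs6 fall in GM cells.

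Whether the LPS response differed between growth factors was tested directly as the difference of the log2 fold changes, GM minus M. On TC dishes 6 members had a lower value in GM cells and 1, Socs5, a higher one, against 23.3% and 17.8% of all tested genes. On noTC dishes 6 had a lower value and none a higher one, against 19.3% and 16.9%, with Socs5 at 0.28 ± 0.11 (adjusted p = 0.06, edgeR; 0.0225 unadjusted, and called with library size only, without the filter on low counts or on the libraries of the comparison alone). For Cish the difference was -5.98 ± 0.19 on TC (adjusted p = 4.3e-16) and -5.07 ± 0.16 on noTC, for Socs3 -4.23 ± 0.12 and -3.66 ± 0.11, and for Socs1 -3.28 ± 0.20 and -3.42 ± 0.18. After the subtraction the values on noTC were -7.02 for Cish, -4.91 for Socs3 and -3.73 for Socs1. Socs7 followed with -0.96 ± 0.12 and -0.66 ± 0.11. For Socs6 the difference was -0.91 ± 0.09 and -1.27 ± 0.09, since it fell further in GM cells. Socs2 differed by -1.02 ± 0.31 on TC (adjusted p = 0.0116), a call lost without M-TC replicate 2 or M-TC-LPS replicate 2 and with library size only, and by -2.64 ± 0.32 on noTC (-2.96 after the subtraction). Socs4 did not differ on either dish (-0.04, interval -0.23 to 0.15, on both), and with library size only its difference on TC was 0.31.

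The dish comparison asks how the family differed between untreated and treated dishes. In GM cells at steady state 2 members were lower on noTC and none higher, against 2.85% and 4.69% of all tested genes. Cish was lower, at 59.8 and 60.7 CPM against 72.4 and 76.3 CPM on TC (-0.30 ± 0.07, adjusted p = 0.00541), and Socs6 at 117 and 111 CPM against 134 and 125 CPM (-0.19 ± 0.05, adjusted p = 0.0396). The libraries did not overlap, but both calls were lost in fits to the 4 libraries of the comparison alone (edgeR, adjusted p = 0.0723 for Cish and 0.271 for Socs6), and that of Socs6 under 11 of 13 alternatives in all. Heart muscle transcripts (19.6 to 43.9 CPM on TC and 0.551 to 0.749 CPM on noTC) and mast cell and basophil markers (31.4 to 37.1 and 20.8 to 22.0 CPM) were lower on noTC too, and their part was not tested. The count became 1 without GM-TC replicate 1 or GM-noTC replicate 2 and 0 without GM-noTC replicate 1. Upon LPS no member differed between dishes in GM cells at an adjusted p of 0.05 by edgeR or DESeq2, nor at an unadjusted p of 0.05 by edgeR, where 2.08% of all tested genes were higher and 0.727% lower. Socs3 was then at 479 and 505 CPM on TC and at 476 and 498 CPM on noTC (log2 fold change -0.01, interval -0.13 to 0.10), and Cish differed by 0.00065 (-0.13 to 0.13). The log2 fold changes of the other 6 members lay between -0.16 (Socs5) and 0.09 (Socs7).

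In M cells at steady state 2 members were lower on noTC and none higher, against 11.1% and 16.1% of all tested genes. Socs6 was at 35.0 and 34.8 CPM on noTC against 50.4 and 51.0 CPM on TC (-0.54 ± 0.06, adjusted p = 5.3e-07), and the groups did not overlap. Socs2 was at 0.303 and 0.743 CPM against 1.56 and 1.16 CPM (-1.26 ± 0.31, adjusted p = 0.00366), on 9 and 32 counts on noTC, and its call was lost without M-TC replicate 1 and when DESeq2 was run on the 4 compared libraries alone (adjusted p = 0.0503). With the subtraction the Socs2 difference was -1.56 (adjusted p = 0.00116). The heart muscle transcripts of the TC libraries move with both differences. Dendritic cell markers were higher on noTC in M cells, at 65.6 to 65.9 CPM against 21.5 to 23.3 CPM. The part of either was not tested. Socs4, at -0.17 ± 0.06 (adjusted p = 0.0508), was called lower with library size only (adjusted p = 0.0436), DESeq2's size factors (0.0343) and on the libraries of the comparison with edgeR (0.00613) or DESeq2 (0.0456). Socs5 and Socs7 had log2 fold changes of 0.12 and -0.01 and were not called. Socs1 and Socs3 were within replicate spread, with log2 fold changes of 0.07 (interval -0.44 to 0.59) and 0.05 (-0.25 to 0.34). After subtracting the share of other libraries Socs3 was lower on noTC (log2 fold change -1.34, adjusted p = 3.02e-05) and Cish moved from 0.82 (adjusted p = 0.123) to -1.13 (adjusted p = 0.121). The measured excess of Socs3 on noTC was 0.0380% of its mean in the other 10 libraries and that of Cish 0.327%, both under the 0.573% that was subtracted.

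In M cells upon LPS 2 members were higher on noTC and 2 lower, against 10.4% and 12.9% of all tested genes. Socs3 was at 665 and 680 CPM on noTC and 1057 and 994 CPM on TC (log2 change -0.61 ± 0.05, adjusted p = 4.25e-08). Socs7 was also lower, at 132 and 125 CPM against 158 and 165 CPM (-0.33 ± 0.07, adjusted p = 0.00155). Socs1 was higher, at 138 and 137 CPM against 110.4 and 116 CPM (0.28 ± 0.07, adjusted p = 0.00338). Cish was higher by 0.21 ± 0.07 (adjusted p = 0.0353), a call lost under DESeq2 and without M-TC-LPS replicate 1, M-noTC-LPS replicate 1 or M-noTC-LPS replicate 2. None of these groups overlapped between dishes, so that the inducible members Socs1 and Socs3 stood on opposite sides in M-noTC-LPS cells. Dendritic cell markers were higher in M-noTC-LPS (45.5 to 50.3 CPM) than in M-TC-LPS libraries (17.6 to 19.4 CPM), and their part was not tested.

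**Figure D5:**
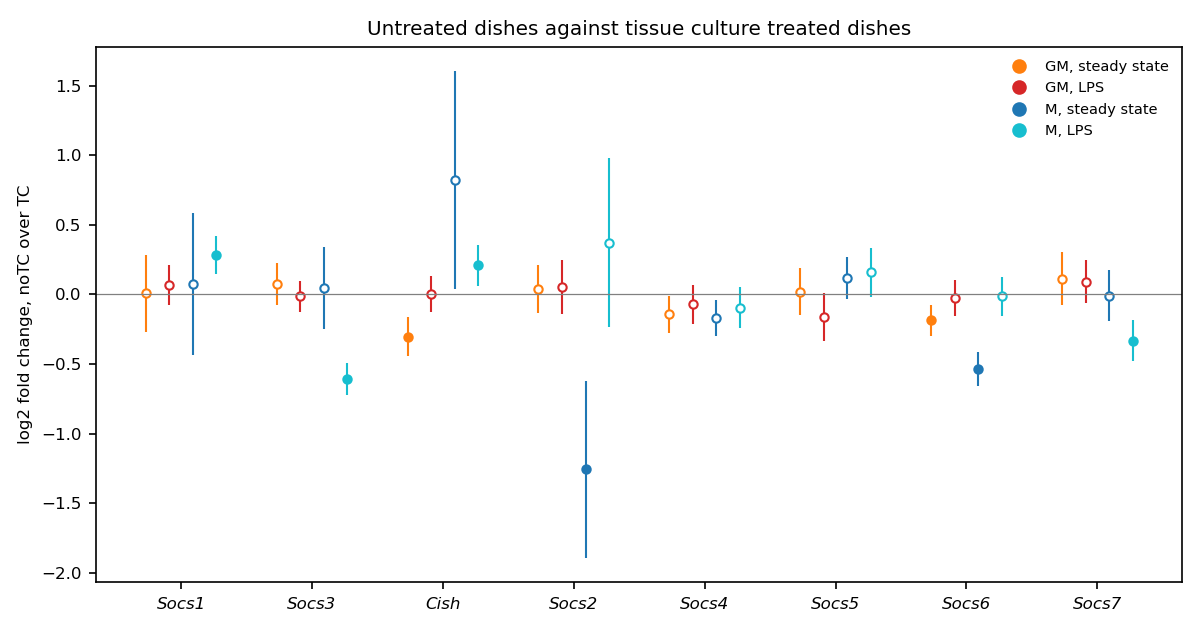
Log2 fold change of noTC over TC dishes for each member with 95% intervals, in GM and M cells at steady state and upon LPS; filled points passed an adjusted p of 0.05. Most GM points lie near 0, and M cells upon LPS have Socs3 at -0.61 and Socs1 at 0.28. In M cells the wide bars of Cish at steady state and of Socs2 go with low counts.

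Differences between these effects were also tested. The dish difference in the LPS response was called for no member in GM cells by edgeR (1 member, Cish, at an unadjusted p of 0.05, with 0.30 ± 0.09 and adjusted p = 0.178), where 0.192% of all tested genes were higher and 0.591% lower, and it was called for Cish without GM-TC replicate 1 (adjusted p = 0.0218). In M cells it was higher on noTC for Socs2 (1.63 ± 0.42) and Socs6 (0.52 ± 0.09, adjusted p = 0.000478) and lower for Socs3 (-0.66 ± 0.15, adjusted p = 0.00686), against 3.11% and 7.48%. The Socs3 value became 0.74 after the subtraction and was called the other way (adjusted p = 0.0305), its call was lost without M-TC replicate 2 or M-noTC replicate 1, and that of Socs2 (adjusted p = 0.0148) was lost without replicate 1 of M-TC, M-noTC, M-TC-LPS or M-noTC-LPS. Between growth factors the dish effect at steady state was higher in GM for Socs2 (1.30 ± 0.32, adjusted p = 0.00905, lost without M-TC replicate 1 or M-noTC replicate 1) and Socs6 (0.35 ± 0.08, adjusted p = 0.00604), and lower for none, against 4.82% and 6.40%. With the share subtracted, Socs2 was at 1.61 and Socs3 was called too, at 1.28. Upon LPS it was higher in GM for Socs3 (0.59 ± 0.08, adjusted p = 1.72e-05) and Socs7 (0.42 ± 0.10, adjusted p = 0.00831) and lower for none, against 6.87% and 3.71%. With library size only Socs7 was no longer called there.

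The other parts of the pathway are given from lists, beside the medians of all tested genes, which were between -0.05 and 0.03 in the comparisons below. The counts of a list are to be set against the shares of all tested genes, which were 32.8% higher and 34.2% lower with LPS in GM-TC, 37.6% and 36.4% with LPS in M-TC, 32.6% and 28.9% for GM-TC against M-TC, and 10.4% and 12.9% for noTC against TC in M cells upon LPS. Of 25 cytokine ligands 17 were tested. With LPS 16 rose in GM-TC and 16 in M-TC cells and none fell, with median log2 fold changes of 6.12 and 6.45. Several of these ligands passed the count filter only through LPS libraries and could therefore only rise. Il23a, for example, was at 0 CPM in GM-TC and M-TC and at 41.0 and 1.20 CPM upon LPS. The counts and medians of this list are thus partly set by the filter. Il6, a gp130 ligand, went from 0.252 to 2018 CPM in GM-TC and from 0.0199 to 1493 CPM in M-TC (group means of 2 libraries). Il12b went from 0.156 to 3356 CPM in GM-TC cells, and in M-TC cells it was at 0 counts at steady state and at 520 ± 64.2 CPM (SD, n = 2) upon LPS. Il10, an interleukin that acts through STAT3, was at 0.488 ± 0.0321 CPM in GM-TC-LPS and 48.9 ± 6.75 CPM in M-TC-LPS (log2 fold change -6.63 ± 0.22 (SE), adjusted p = 2.35e-16). Il10 was also lower on noTC than on TC dishes in M cells upon LPS, at 26.1 ± 3.62 CPM (-0.90 ± 0.12, adjusted p = 1.64e-05). Ifnb1, which encodes interferon beta, was higher on noTC there, at 15.1 ± 0.984 against 6.71 ± 0.786 CPM (1.17 ± 0.18, adjusted p = 6.29e-05). Csf2, which encodes GM-CSF and was named after its values were seen, had means of 8.36, 9.78, 5.26 and 4.05 CPM in GM-TC-LPS, GM-noTC-LPS, M-TC-LPS and M-noTC-LPS and at most 0.17 CPM at steady state.

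Of 33 cytokine receptors 30 were tested. At steady state on TC dishes 14 were higher in GM cells and 8 lower (median 0.71). Csf2rb, the signaling chain of the GM-CSF receptor, was at 1930 ± 91.9 CPM in GM-TC and 180 ± 0.310 CPM in M-TC (3.43 ± 0.06, adjusted p = 8.1e-22). Its paralog Csf2rb2 is nearly identical, so reads may be split between them. Csf3r, the G-CSF receptor that SOCS3 restrains, was lower in GM-TC, at 2.90 ± 0.177 against 36.8 ± 0.519 CPM (-3.67 ± 0.13). With LPS 13 of the 30 receptors rose and 8 fell in GM-TC and 16 rose and 6 fell in M-TC. Il6ra, the interleukin 6 receptor, fell in both, from 22.2 to 1.07 CPM and from 99.0 to 7.99 CPM. Of 11 JAK and STAT genes, all tested, 9 rose with LPS in GM-TC and 10 in M-TC and none fell, with medians of 0.86 and 1.56. Jak2, the kinase of the GM-CSF receptor, rose from 87.4 to 730 CPM in GM-TC and from 45.8 to 1021 CPM in M-TC. Stat2 rose in GM-TC from 68.9 to 587 CPM, and Stat5a in M-TC from 17.8 to 122 CPM. In M cells upon LPS 5 of the 11 were lower on noTC and none higher, among them Jak1 (-0.40 ± 0.05) and Jak2 (-0.25 ± 0.05).

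Of 13 other inhibitors of JAK-STAT signaling, all tested, 6 rose and 3 fell with LPS in GM-TC and 6 rose and 4 fell in M-TC, with medians of 0.11 and 0.14. Usp18, which restrains the interferon receptor, rose from 12.7 to 395 CPM in GM-TC and from 37.5 to 774 CPM in M-TC. Sh2b3, the adaptor LNK, fell from 57.3 to 30.9 CPM and from 115 to 41.8 CPM. At steady state 3 of the 13 were higher and 8 lower in GM-TC than in M-TC, with Ptpn1, a phosphatase of JAK2, at 233 ± 10.9 against 91.4 ± 2.03 CPM. Of the 9 ubiquitin ligase partners of the SOCS box, 6 rose and 1 fell in GM-TC and 7 rose and none fell in M-TC with LPS, at medians of 0.26 and 0.47. Eloc, which encodes elongin C, rose in GM-TC from 22.9 to 42.2 CPM, and Cul2 in M-TC from 34.3 to 115 CPM. Of 27 other genes with a SOCS box 18 were tested. In GM-TC cells 4 rose and 6 fell with LPS, and in M-TC cells 5 rose and 10 fell, with medians of -0.08 and -0.70. Spsb1 rose in both (log2 fold changes of 2.56 ± 0.22 and 5.56 ± 0.22).

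Lists of STAT target genes were also counted. Of 9 STAT5 targets 7 were higher in GM-TC than in M-TC at steady state and 2 lower (median 1.65). Il2ra, which the receptor list also holds, was at 21.8 ± 1.35 against 0.0574 ± 0.0247 CPM, and Ccnd1, which encodes cyclin D1, was lower in GM-TC, at 11.2 ± 0.238 against 51.1 ± 0.0107 CPM. With LPS 5 rose and 3 fell in GM-TC and 7 rose and 2 fell in M-TC. Between GM-TC-LPS and M-TC-LPS, 3 of the 9 were higher in GM and 6 lower (median -0.45), against 33.9% and 32.9% of all tested genes. Of 6 STAT3 targets of interleukin 10, 5 rose and 1 fell in GM-TC with LPS and 6 rose in M-TC. Upon LPS 4 of the 6 were lower on noTC than on TC dishes in M cells and none higher (median -0.25), among them Il4ra (-1.30 ± 0.08) and Sbno2 (-0.50 ± 0.06). This was not particular to the list. In that comparison 9 of the 30 receptors, a list that also holds Il4ra, were lower and 2 higher (median -0.17). Of the 13 other inhibitors 5 were lower and none higher (median -0.14).

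The genes whose level followed each member most closely over the 16 libraries were found by Pearson's r of log2 CPM. The libraries share groups and scaling, so these values describe the pattern only. Socs1 was followed by Tiparp (0.998), Serpina3g (0.997) and Arhgef3 (0.996), Socs3 by Slc15a3 (0.997), Abtb2 (0.996) and Hk2 (0.996), and Socs7 by Dusp16 (0.998), Ranbp2 (0.997) and Gpbp1 (0.997). The genes nearest to Cish were Bcl2a1a (0.993), Zyx (0.993) and Glipr2 (0.992), and those nearest to Socs2 were Wnk2 (0.989), Galnt1 (0.985) and Dgat1 (0.984). Socs6 was nearest to Klhl9 (0.978), Abcg1 (0.977) and Dnajc5 (0.974), Socs4 to Zfp655 (0.979), Tsku (0.969) and Tns1 (0.966), and Socs5 to Cmah (0.933), Zcchc8 (0.921) and Hjurp (0.908). Bcl2a1a belongs to a family of near-identical copies, so its counts are uncertain. Within the family the closest pairs were Socs1 and Socs3 (0.995), Socs1 and Socs7 (0.958), Socs3 and Socs7 (0.948) and Socs4 and Socs6 (0.914), and the most opposed were Socs5 and Cish (-0.887).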

How the data were processed

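Bone marrow-derived macrophages gave 16 RNA-seq libraries in 8 groups of 2. The authors enriched mRNA with oligo dT, built libraries with a kit that does not mark strand, aligned reads with HISAT2 and quantified them with RSEM; the genome build and annotation are not given in the sources used here. The deposited values are expected counts of 22287 genes, without normalization, and 6.56% to 8.19% of the values of a library were not whole, none of them in a SOCS gene. Counts were rounded and tested in edgeR 4.0.16 (R 4.3.3) by the quasi-likelihood F test over all 16 libraries, with TMM scaling, its expression filter by group and no replicate block. P-values were adjusted by Benjamini-Hochberg over 12514 genes and called under 0.05. Its dispersion common to all genes was 0.00226 (coefficient of variation 4.75%), and TMM factors ranged from 1.11 to 1.39 without and from 0.778 to 0.842 with LPS. The tests were checked on simulated counts for the LPS response in GM-TC only, with changes set in well-counted genes. That check did not cover changes in genes at low counts, other comparisons or differences between effects.

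The members, gene lists, marker lists and tests were chosen with earlier results of these data known. All 8 members were tested in every comparison, and values are given for those the text describes. The result of 1 gene list is not reported here. In a comparison described for a list, a maximum of 2 genes in each direction, those of largest fold change among those called and at 1 CPM or more in the higher group were named. The 3 genes with the highest r were named for each member, with a prior count of 2. Transcript lengths are those of principal transcripts in GENCODE M21. The share of other libraries is the median over 7 genes that had under 1 CPM in every TC library without LPS but 100 CPM or more, on average, in the 10 others. Alternatives were library size only, DESeq2 size factors, no expression filter, a fit to the libraries of the comparison, DESeq2 1.42.0 on all libraries or those of the comparison, the study's rule of a fold above 2 (or, chosen after seeing the data, its second threshold of 1.5 between dishes upon LPS) at an unadjusted p under 0.05, a replicate block, leaving out each library, and subtracting the share.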

Additional observations from a re-analysis of the deposited data

Results flagged for a closer look

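For the following results the effect of one factor differed between the groups of another, by the interaction term of edgeR's quasi-likelihood test with Benjamini-Hochberg adjustment. Groups of 2 libraries were too small for a test of outlying libraries. In this section the LPS response is the log2 fold change with its sign. It was lower in GM than in M cells on TC dishes for Cish (log2 difference -5.98), Socs3 (-4.23), Socs1 (-3.28), Socs2 (-1.02), Socs7 (-0.96) and Socs6 (-0.91), and higher for Socs5 (0.50). On noTC dishes it was lower for Cish (-5.07), Socs3 (-3.66), Socs1 (-3.42), Socs2 (-2.64), Socs6 (-1.27) and Socs7 (-0.66). A lower value is not always a weaker response. Socs6 fell further in GM-TC (-1.49) than in M-TC cells (-0.59). Socs2 was at -0.99 in GM-TC and 0.04 in M-TC, and Socs5 at 0.08 and -0.42. After subtracting the share of other libraries the values on noTC were -7.02 for Cish, -4.91 for Socs3, -3.73 for Socs1 and -2.96 for Socs2. In M cells at steady state these members had 6 to 24 (Cish), 24 to 49 (Socs1), 9 to 39 (Socs2) and 72 to 113 (Socs3) counts per library.

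Between dishes in M cells the LPS response was higher on noTC for Socs2 (1.63) and Socs6 (0.52) and lower for Socs3 (-0.66). The Socs3 value turned to 0.74 with the share subtracted, the Socs2 call was lost without replicate 1 of M-TC, M-noTC, M-TC-LPS or M-noTC-LPS, and without M-TC replicate 2 or M-noTC replicate 1 the Socs3 call was lost. The noTC minus TC difference was higher in GM than in M cells for Socs2 (1.30, a call lost without M-TC replicate 1 or M-noTC replicate 1) and Socs6 (0.35) at steady state, and for Socs3 (0.59) and Socs7 (0.42) upon LPS.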

How the results depend on the processing

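Of 144 log2 fold changes of members (8 members in 18 comparisons), 86 were called, and 73 of these kept their call and direction under every alternative other than the study's rule. The other 13 lost the call or turned, 7 of them under another scaling and 10 with a library left out. Of the 36 counts of members called higher or lower, those that moved by over 1.5 times are given here, and the causes were not tested beyond fewer libraries or genes entering a fit. In GM cells at steady state the 2 members lower on noTC became 1 with library size only, DESeq2 size factors, no expression filter, DESeq2 on all libraries or the share subtracted, and 0 on the libraries of the comparison with edgeR or DESeq2. In M cells upon LPS the 2 members higher on noTC became 1 with DESeq2 size factors and with both DESeq2 fits. For the dish difference in the LPS response of M cells, 1 member lower became 2 without the filter or on the libraries of the comparison with edgeR or DESeq2 and 0 with the share subtracted, and 2 higher became 1 with DESeq2 on those libraries. For the growth factor difference in the LPS response, 1 higher on TC became 2 with library size only, and 0 higher on noTC became 1 with library size only, no filter or the libraries of the comparison. For the growth factor difference in the dish effect upon LPS, library size only gave 1 higher and 3 lower in place of 2 and 0.

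The study's rule of a fold above 2 and an unadjusted p under 0.05 moved 20 counts by over 1.5 times, most of them because the members' differences were under 2-fold. Some other counts changed by no more than that and are not listed. It gave 1 member lower upon LPS in GM cells and 0 in M cells on either dish; 0 lower on noTC in GM and 1 in M cells at steady state, and 0 higher and 0 lower in M cells upon LPS, where the study's second threshold, a fold above 1.5, gave 0 higher and 1 lower (Socs3). It gave 0 lower in GM than M cells at steady state on either dish, and 2 higher and 1 lower upon LPS on both. For the differences it gave 1 higher and 0 lower (dish by LPS in M), 0 higher (growth factor by LPS on TC), 1 higher and 1 lower (growth factor by dish at steady state) and 0 higher (the same upon LPS).

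Signs turned in 7 values that were called in at least 1 of the fits compared, and in 71 further cases, each 1 value under 1 alternative, the sign was opposite and neither fit made a call. With library size only the LPS response was -0.40 for Socs5 in GM-TC and -0.79 for Socs2 in M-TC, the GM over M difference was -0.0215 for Socs4 on TC and -0.0682 for Socs7 on noTC at steady state, and the growth factor difference in the LPS response on TC was 0.31 for Socs4. With the share subtracted Socs3 had -1.34 between dishes in M cells at steady state and 0.74 for the dish difference in the LPS response.

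With 1 library left out, the lone library of its group being assumed to vary like the others, counts ranged from 0 to 1 higher and 0 to 2 lower on noTC in GM at steady state, 1 to 2 lower in M at steady state and 1 to 2 higher in M upon LPS. They ranged from 0 to 1 higher for the dish difference in the LPS response in GM and from 1 to 2 higher and 0 to 1 lower in M, from 0 to 1 higher for the growth factor difference on noTC, and for the growth factor difference in the dish effect from 1 to 2 higher at steady state and 0 to 1 lower upon LPS. The other counts moved by no more than 1.5 times.

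No pairing of the libraries by replicate number was seen, but these checks cannot tell whether libraries of the same number shared a mouse. Differences between replicates correlated across genes between -0.06 and 0.09 over 28 pairs of groups. A replicate block left all 36 counts as they were, such as 4 higher and 3 lower with LPS in GM-TC. Depth limits Cish, Socs1 and Socs2 in M cells at steady state, which rest on 6 to 49 counts per library.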
